A study of Rattus norvegicus with 11 samples.

Results

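The microRNAs miR-204 and miR-211 form a small family with the same seed, the stretch of a microRNA (miRNA) that pairs with its target RNAs. They were followed in isolated pancreatic islets of Sprague-Dawley rats, in 6 small RNA libraries from 3-month-old males (adult, 12 weeks by the labels) and 5 libraries from 10-day-old pups (P10, 1.5 weeks). The labels call the animals of both ages control rats, and name no transgene and no treatment. They call the libraries biological replicates without saying whether a library pools animals, and as no sex of the pups entered this work, age cannot be told apart from sex. The family was taken as all rows named for miR-204 or miR-211 with a sense tag, which gave 3 mature arms (miR-204-5p, miR-204-3p and miR-211-5p) among 898 features with 1 entry per name, from 950 deposited rows. There were 0 antisense rows under either name. A mature arm is the 5′ (5p) or 3′ (3p) strand cut from the same hairpin precursor. Of the 3 arms, 1 (miR-204-5p) passed the filter on low counts and entered the test across all features.

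In the beta cell, miR-204 is known from work in rodent beta-cell lines and islets, where the protein TXNIP raises it and it represses Mafa, an activator of insulin transcription. It is also known to repress the receptor of the incretin hormone GLP-1. Outside the pancreas it is abundant in the retinal pigment epithelium, while miR-211 is best known from pigment cells. The precursors are known as intronic miRNAs of ion channel genes. In the RefSeq gene table of GRCr8, Mir204 lies within the span of Trpm3 and Mir211 within that of Trpm1.

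The mature sequences are shown because the near identity of the 5p arms limits how the counts can be read. They were read 5′ to 3′ from RefSeq (GRCr8), with the seed, bases 2 to 8, in capitals. All 3 counted arms had an entry there.
miR-204-5p: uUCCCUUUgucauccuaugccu
miR-211-5p: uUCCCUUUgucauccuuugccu
miR-204-3p: gCUGGGAAggcaaagggacguu
miR-211-3p: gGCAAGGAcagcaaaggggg

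The seeds of miR-204-5p and miR-211-5p were identical, and of 693 rat mature names in the RefSeq table only these 2 carried it. The site in a target that matches the seed reads AAAGGGA. Over 22 bases the 5p arms differed at 1 position, A17U, counted from 1 at the 5′ end, with the base of miR-204-5p first. The 3p arms shared no seed and were alike at 13 of 23 aligned positions. miR-211-3p is shown for this comparison and was not analysed here.

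The whole hairpins, with the annotated arms in capitals, show that the likeness was strongest in the 5p arm. Aligned to each other they matched at 73 of 115 positions (63.5%), against 95.5% for the 5p arms and 56.5% for the 3p arms.
Mir204: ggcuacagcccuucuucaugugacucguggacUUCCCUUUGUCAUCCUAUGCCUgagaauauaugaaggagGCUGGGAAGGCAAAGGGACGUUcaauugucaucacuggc
Mir211: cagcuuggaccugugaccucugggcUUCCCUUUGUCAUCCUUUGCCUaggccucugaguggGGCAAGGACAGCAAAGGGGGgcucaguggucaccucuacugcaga

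In the coordinates of the deposited table (Rnor_5.0) all 3 arms lay on the plus strand of chromosome 1. miR-204-5p spanned 247690222 to 247690243 and miR-204-3p 247690261 to 247690282, with 17 bases between them. miR-211-5p spanned 126151194 to 126151215, 121.5 Mb away. No other counted feature started within 10 kb of any of the 3 arms, and each name had 1 row.

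miR-204-5p was an abundant islet miRNA at both ages, and it made up nearly all of the family's counts. It held 3620, 11062, 3737, 2981, 5849 and 4655 counts in adult replicates 1 to 6, and 6774, 2953, 6625, 6298 and 8816 counts in P10 replicates 1, 3, 4, 5 and 6. Library totals ran from 1430412 to 2841550 counts in adults and from 1594961 to 4468745 counts at P10. Within its library miR-204-5p took 0.253% ± 0.0786 of all counts in the 6 adults and 0.213% ± 0.0358 in the 5 P10 libraries (mean ± SD). By abundance it ranked between 29th and 41st in the adult libraries (median 36) and between 37th and 47th in the P10 libraries (median 44), a rank that no scaling between libraries can move.

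The comparison of ages asked how the islet miRNA profile differs between suckling pups and mature animals. miR-204-5p was modestly higher in adults. In counts per 1000000 counts (CPM), scaled by TMM, a method that balances libraries on the bulk of their features, it stood at 2059 at the lowest, 2472 at the median and 4223 at the highest adult. At P10 it stood at 2237, 1984, 1747, 1794 and 1832 CPM in replicates 1, 3, 4, 5 and 6. The groups overlapped: 4 of 6 adults lay above every P10 library, and adult replicates 4 and 5 lay below P10 replicate 1. The means were 2741 ± 809 CPM over the 6 adults and 1919 ± 198.8 CPM over the 5 P10 libraries (± SD). This is a log2 change of 0.51 ± 0.17 (SE), or 1.43-fold (edgeR's quasi-likelihood test with Benjamini-Hochberg adjustment, adjusted p = 0.0245). Across all 457 features tested 50.8% were called, 21.2% as higher in adults and 29.5% as lower, so a call was common in this comparison. Of the 97 features called higher, 84 had a larger log2 change than miR-204-5p. The CPM ranges of the ages did not overlap for 30.0% of the features tested, and miR-204-5p was not one of these.

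**Figure D1:**
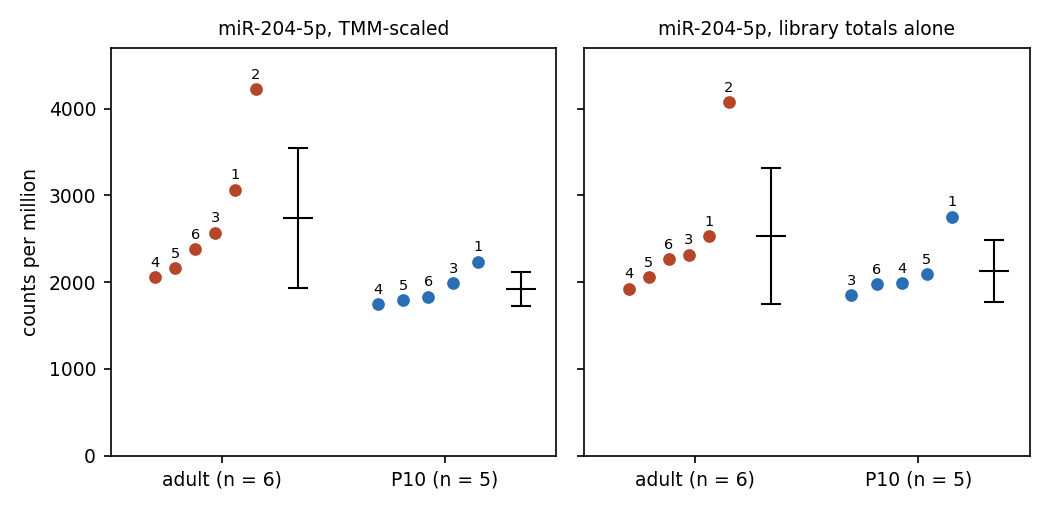
CPM of miR-204-5p in each library, with TMM scaling (left) and with library totals alone (right); points are libraries labelled by replicate number, and bars are the mean ± SD of 6 adult and 5 P10 libraries. Adult replicate 2 is the highest library in both panels, and P10 replicate 1 lies above 2 adults on the left and above all adults but replicate 2 on the right.

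The call rested on the libraries being scaled: it was lost on library totals alone and kept with each other scaling tried. With DESeq2-type size factors the log2 change was 0.60 ± 0.17 (SE; edgeR adjusted p = 0.0103). On library totals alone (unscaled CPM) miR-204-5p stood at 1923 at the lowest, 2291 at the median and 4074 unscaled CPM at the highest adult, and at 2754, 1851, 1984, 2092 and 1973 at P10 (replicates 1, 3, 4, 5 and 6). P10 replicate 1 then lay above 5 of the 6 adults. The log2 change was 0.25 ± 0.18 (SE), 1.19-fold, and missed the threshold (edgeR adjusted p = 0.274). The TMM factors ran from 0.826 to 0.965 in adults and from 0.933 to 1.23 at P10. In the same libraries miR-375-3p took 23.8% to 28.5% of all counts in adults and 10.6% to 19.4% at P10. With miR-375-3p left out of the TMM factors, the log2 change of miR-204-5p was 0.52 ± 0.17 (SE; edgeR adjusted p = 0.0250). TMM itself sets aside features of extreme abundance, so this alternative could change little. The median log2 change over all features moved by -0.26 when library totals took the place of TMM. Against that median the log2 change of miR-204-5p stood at 0.63 with TMM scaling and at 0.62 with library totals alone.

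Single libraries and single choices also decided the side of the threshold. Without P10 replicate 4 the log2 change was 0.48 (edgeR adjusted p = 0.0565), and without features that carry only an Ensembl identifier it was 0.45 (edgeR adjusted p = 0.0513). Upper-quartile scaling gave the largest value, 0.68 ± 0.17 (SE), 1.60-fold (edgeR adjusted p = 0.00398). All values of miR-204-5p, over the scalings, filters, tools and left-out libraries tried, were above 0.

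**Figure D2:**
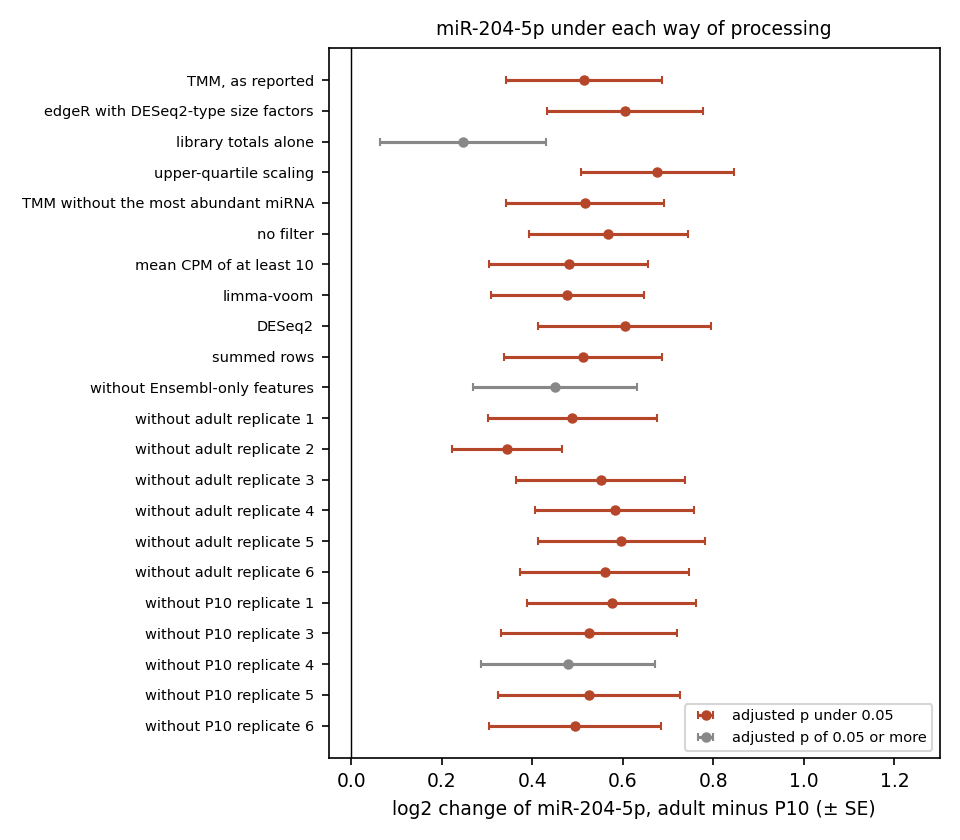
Log2 change of miR-204-5p between adult and P10 libraries (± SE) under each way of processing except the fit with same-numbered libraries as a block. Values are in red where the adjusted p was under 0.05 and in grey elsewhere. Every value lies above 0, from 0.25 with library totals alone to 0.68 with upper-quartile scaling, and 3 of them are grey.

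The spread of miR-204-5p among adults came largely from 1 library, adult replicate 2. Its coefficient of variation in CPM was 29.5% over 6 adults and 10.4% over 5 P10 libraries. Without adult replicate 2 it was 16.3% over 5 adults, where the median feature was at 15.6%. Counting error alone was between 0.951% and 1.84% in every library. Over the 227 features of at least 50 CPM the median coefficient of variation was 16.0% in adults and 18.3% at P10, and 44 of them were as variable as miR-204-5p or more so in adults. In the 5 adults without replicate 2, 108 of the 227 were as variable or more so. At P10, 192 of the 227 were as variable or more so. Whether the spread of miR-204-5p differs between ages was not tested.

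Adult replicate 2 was the highest adult library for miR-204-5p, at 4223 CPM against 3064 CPM in the next, adult replicate 1. Without it the log2 change was 0.34 ± 0.12 (SE), 1.27-fold, and still passed (edgeR adjusted p = 0.0341). This library was the highest adult for 28 of the 227 features of at least 50 CPM. In it the endocrine markers miR-375 and miR-7a had the lowest summed level of any adult library (252409 CPM) and the acinar markers miR-216 and miR-217 likewise (28.6 CPM). The erythroid markers miR-144 and miR-451 had their highest adult level (63.7 CPM), and the mesenchymal markers, at 31799 CPM, were second among adults. Adult replicates 1 to 3 were at 3064, 4223 and 2568 CPM for miR-204-5p, and replicates 4 to 6 at 2059, 2157 and 2376 CPM. Mesenchymal sums were 58287, 31799 and 31421 CPM in replicates 1 to 3 and 18096, 21816 and 17172 CPM in replicates 4 to 6. Leukocyte sums were 647, 699 and 787 CPM, against 242, 212 and 319 CPM. The endocrine, acinar, erythroid and neuronal sums did not part the adults this way. This grouping of the adults was not planned, and how many of all features part them likewise was not counted. At P10 the library highest in miR-204-5p, replicate 1 (2237 CPM), had the lowest mesenchymal sum of its age (33246 CPM). Its leukocyte sum (922 CPM) ranked 3 at that age. The part of any of these in the miR-204-5p value was not tested.

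Markers of other cell types were read in the same libraries, and their counts are to be set beside the 21.2% of all features called higher in adults and the 29.5% called lower. The 6 mesenchymal rows (miR-143, miR-145 and miR-199a) summed to 17172 to 58287 CPM in adults and 33246 to 61126 CPM at P10, with 4 of 6 lower in adults and 0 higher. The 6 acinar rows summed to 28.6 to 127 CPM in adults and 22.2 to 37.7 CPM at P10, with 2 of 3 tested higher. The 5 leukocyte rows summed to 212 to 787 CPM in adults and 617 to 1357 CPM at P10, with 1 of 3 tested lower, a share near that over all features. The endocrine rows summed to 252409 to 325858 CPM in adults and 113493 to 166418 CPM at P10, with 4 of 6 higher. Of the higher rows, miR-7a-1-5p and miR-7a-2-5p are the same arm at different loci and may hold the same reads. miR-375-3p was the most abundant feature in every library but P10 replicate 3, where it was second. Erythroid rows summed to 14.5 to 63.7 CPM in adults and 24.2 to 72.3 CPM at P10, and 0 of 2 tested were called. The neuronal miR-124 and miR-137 summed to under 15 CPM in each library, with 0 of 1 tested called. No marker row was at 0 in all libraries, and the endothelial marker miR-126 was not analysed here. The part of these cells in the miR-204-5p result was not tested, and in whole islets fewer cells of a type and less RNA per cell cannot be told apart.

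Set against other islet miRNAs within the same library, which no scaling can move, miR-204-5p gave values in opposite directions. Per 1000 counts of miR-375-3p, the most abundant islet miRNA and a restraint on insulin secretion, it stood at 6.75 at the lowest, 8.80 at the median and 16.8 at the highest adult. At P10 it stood at 15.9, 17.5, 12.9, 10.8 and 11.4 (replicates 1, 3, 4, 5 and 6). All adults but replicate 2 lay below every P10 library. The means were 9.72 ± 3.66 over the 6 adults and 13.7 ± 2.90 over the 5 P10 libraries (± SD). The difference of -3.999 did not pass the two-sided exact permutation test over the 462 ways to split the libraries (p = 0.0823, or 0.165 adjusted over 4 measures). Without adult replicate 2 the difference was -5.42 (exact permutation p = 0.00794).

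Per 1000 counts of the other islet and neuroendocrine miRNAs, 21 features without miR-375, miR-204 and miR-211, the adults were the higher group. miR-204-5p stood at 209.7 at the lowest, 243 at the median and 453 at the highest adult, and at 229, 151, 182.7, 197 and 164 at P10 (replicates 1, 3, 4, 5 and 6). Of 6 adults, 4 lay above every P10 library. The means were 281 ± 93.0 over the 6 adults and 185 ± 30.3 over the 5 P10 libraries (± SD). Their difference of 96.4 had an unadjusted two-sided exact permutation p of 0.0238. Most of this denominator, 71.2% of its counts, was miR-183-5p, which was itself lower in adults with TMM scaling, a call lost under 3 of 11 alternatives (log2 change -0.63 to -0.22).

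**Figure D3:**
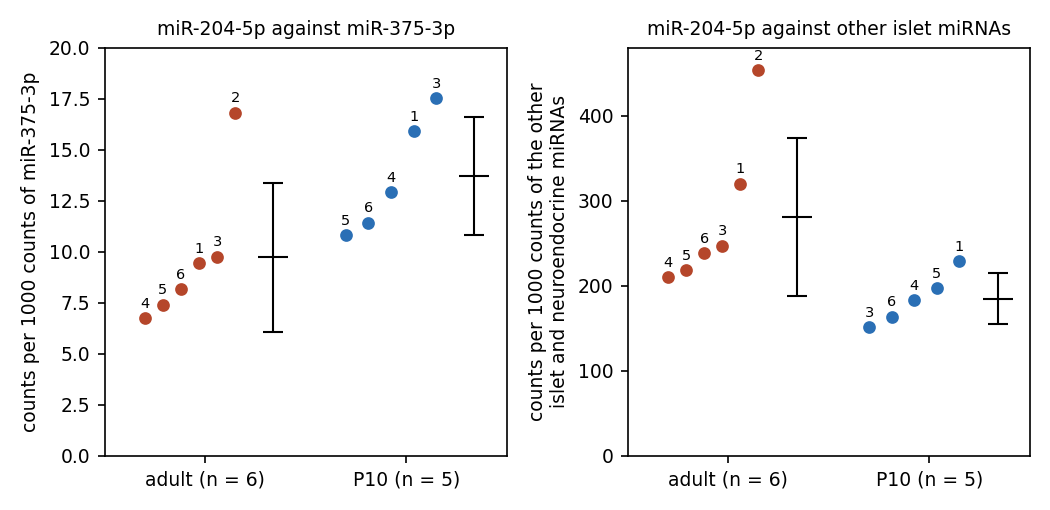
Counts of miR-204-5p per 1000 counts of miR-375-3p (left) and per 1000 counts of the other islet and neuroendocrine miRNAs (right) in each library, labelled by replicate number, with the mean ± SD of 6 adult and 5 P10 libraries. On the left the adults other than replicate 2 lie below all P10 libraries, and on the right 4 adults lie above all P10 libraries.

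Within the list of islet and neuroendocrine miRNAs miR-204-5p was among the smaller rises. The list held 26 features, of which 18 were tested. Of these 9 were higher in adults, 2 were lower and 7 did not pass, with a median log2 change of 0.58 against -0.11 over all 457 features. Over all features 21.2% were higher and 29.5% lower. Without miR-204-5p it was 8 higher, 2 lower and 7 not passed of 17, with a median of 0.65. With library totals alone 5 of the 18 were higher and 2 lower, against 11.8% higher and 40.9% lower over all features. In the list miR-7a-1-5p and miR-7a-2-5p are the same arm at different loci, as are miR-129-1-5p and miR-129-2-5p. Such rows may hold the same reads, so the members counted here are not all independent.

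miR-204-5p was the third most abundant of the tested list members by mean CPM. miR-375-3p was 2.01-fold higher in adults, at 287796 ± 26975 CPM (SD, n = 6), against 143108 ± 21141 CPM at P10 (SD, n = 5; edgeR adjusted p = 8.67e-06). miR-183-5p, of a cluster known from sensory and endocrine cells, was at 6309 ± 510.5 CPM in adults and 8217 ± 1643 CPM at P10, a log2 change of -0.38 (edgeR adjusted p = 0.0191). Its lower call was lost with DESeq2-type size factors (-0.30, edgeR adjusted p = 0.0652), with upper-quartile scaling (-0.22, edgeR adjusted p = 0.199) and in DESeq2 (-0.30, adjusted p = 0.0590). miR-153-3p, a neuroendocrine miRNA, was next in abundance below miR-204-5p, at 1048 ± 148 CPM in adults and 666 ± 306 CPM at P10, and did not pass (edgeR adjusted p = 0.0524). This call depended on the processing: the rise passed under 7 of 11 other scalings, filters and tools (adjusted p 0.0157 to 0.181) and without P10 replicate 4 or 6 (edgeR adjusted p = 0.0255 and 0.0128). Its log2 change of 0.65 was larger than that of miR-204-5p, with an SE of 0.26 against 0.17. miR-7a-2-3p, of the endocrine miR-7 family, had the smallest p of the list after miR-375-3p, at 189 ± 16.2 CPM in adults and 87.1 ± 17.4 CPM at P10 (edgeR adjusted p = 4.70e-05). Levels of different miRNAs were not compared further, since ligation and PCR favour some sequences.

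**Figure D4:**
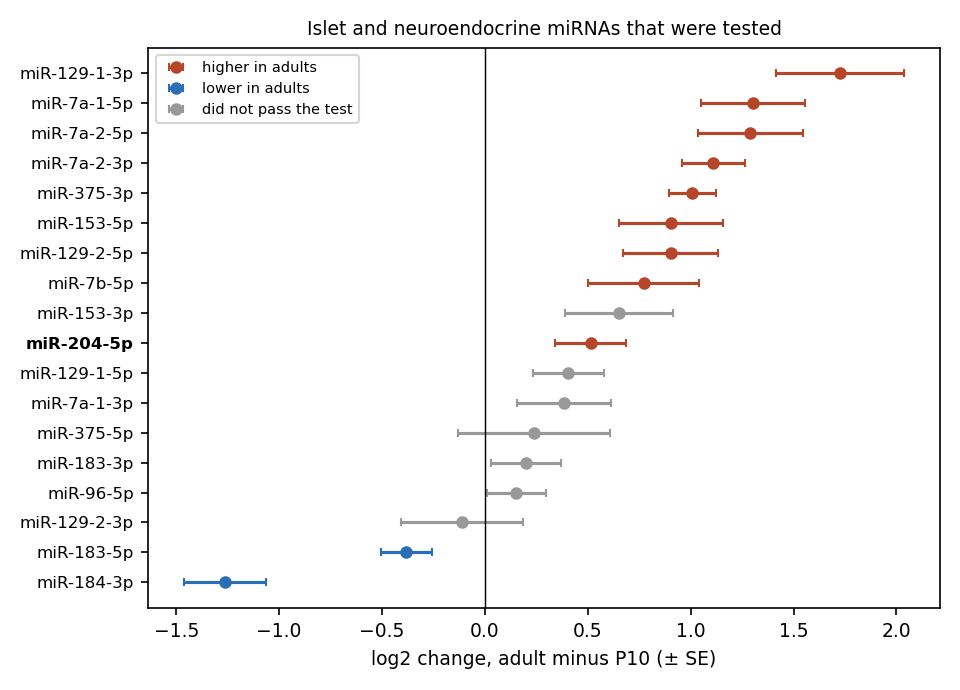
Log2 change between adult and P10 libraries (± SE) of the 18 tested islet and neuroendocrine miRNAs, ordered by size, with the result of the test in colour. miR-204-5p (bold), at 0.51, lies below 9 members of the list, of which 8 passed the test.

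By the measure used, the features nearest to miR-204-5p over the 11 libraries were mostly let-7 miRNAs, known as regulators of developmental timing. Likeness was the root mean square difference of log2 CPM after each feature was centred on its mean, over 226 features of at least 50 CPM. The 5 nearest were let-7c-1-5p, let-7d-5p, let-7c-2-5p, the antisense feature miR-3596a-3p and let-7b-5p, at 0.24 to 0.27, where the median of all was 0.55. The measure favours features that vary little, so nearness does not show a shared course. Over the adults the coefficient of variation of these 5 was 5.90% to 9.70%, against 29.5% for miR-204-5p. let-7c-1-5p and let-7c-2-5p are the same arm at 2 loci and may hold the same reads. let-7c-1-5p was at 5698 ± 553 CPM in adults (SD, n = 6) and 4838 ± 542 CPM at P10 (SD, n = 5), which did not pass (edgeR adjusted p = 0.0736). let-7d-5p and let-7c-2-5p did not pass either (edgeR adjusted p = 0.0726 and 0.108). The antisense feature was higher in adults (edgeR adjusted p = 0.00463). let-7b-5p was higher in adults in 6 of 6 libraries, at 1718 ± 120.5 CPM against 1350 ± 130 CPM at P10, a log2 change of 0.35 ± 0.10 (SE; edgeR adjusted p = 0.00878). These values share libraries and scaling with those of miR-204-5p.

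miR-204 was counted almost only as its 5p arm. miR-204-3p held 1, 4, 0, 1, 1 and 3 counts in adult replicates 1 to 6, and 3, 1, 2, 0 and 3 counts in P10 replicates 1, 3, 4, 5 and 6. No library reached more than 4 counts at either age. The 5p arm took 99.97% of the precursor's counts over all libraries. Of 143 precursors with both arms in the table and at least 1000 counts, 13 had a smaller share in their minor arm than miR-204, and the median minor share was 1.87%.

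The share of the 3p arm gave no detectable difference between the ages at this depth. It averaged 0.0298% ± 0.0215 of the precursor's counts over the 6 adults and 0.0285% ± 0.0168 over the 5 P10 libraries (± SD; two-sided exact permutation p = 0.894). The count of 0 in adult replicate 3 allows a share of up to 0.0803%, and that in P10 replicate 5 of up to 0.0476% (limits at 3 counts). Summed over libraries, 10 counts in 12205742 in adults and 9 in 14873946 at P10 gave an adult to P10 ratio of 1.35 in unscaled CPM, with an exact 95% interval of 0.494 to 3.77. Such intervals and limits cover counting error only, as reads without molecular identifiers are not independent molecules.

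miR-211-5p, whose seed is that of miR-204-5p, was near the limit of detection at both ages. It held 0, 4, 1, 2, 1 and 0 counts in adult replicates 1 to 6, and 5, 7, 7, 8 and 6 counts in P10 replicates 1, 3, 4, 5 and 6. Every P10 library held more counts than any adult library, but the P10 libraries were on average deeper, and depth itself raises raw counts. How many features part the ages this way in raw counts was not counted. In unscaled CPM miR-211-5p was at 0.623 ± 0.635 over the 6 adults and 2.50 ± 1.15 over the 5 P10 libraries (± SD). The difference of -1.88 had a two-sided exact permutation p of 0.00433, in a test chosen after the counts were seen. On this scale the groups overlapped: adult replicate 2, at 1.47, lay above P10 replicate 6, at 1.34. The counts of 0 in adult replicates 1 and 6 allow up to 2.10 and 1.46 unscaled CPM. Summed, 8 counts in adults and 33 at P10 gave an adult to P10 ratio of 0.295, with an exact 95% interval of 0.118 to 0.652.

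The arm failed the filter on low counts, so it got no value in the fit across filtered features. Without the filter its log2 change was -1.49 ± 0.63 (SE), which did not pass over all 898 features (edgeR adjusted p = 0.0900, unadjusted p = 0.0270). In that fit 24.2% of features were called in either direction and 13.4% as lower in adults. With library totals alone in place of TMM the log2 change was -1.78 (edgeR adjusted p = 0.0333), and without adult replicate 2 it was -2.07 (edgeR adjusted p = 0.0436). In the filtered fits, 40.9% of 457 features were called lower on library totals alone, and 117 of 452 without adult replicate 2. These shares were not counted for the unfiltered fits.

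Within the family, miR-211-5p took a smaller share of the 5p counts in adults. The share was 0% in adult replicates 1 and 6, 0.0361% in replicate 2, 0.0268% in replicate 3, 0.0670% in replicate 4 and 0.0171% in replicate 5. At P10 it was 0.0738%, 0.236%, 0.106%, 0.127% and 0.0680% in replicates 1, 3, 4, 5 and 6. The shares in percent did not overlap, but the nearest libraries lay within counting error of each other. Adult replicate 4 had 2 of 2983 counts, with an exact (Clopper-Pearson) 95% interval of 0.00812% to 0.242%, and P10 replicate 6 had 6 of 8822 counts, with an interval of 0.0250% to 0.148%. The means were 0.0245% ± 0.0253 over the 6 adults and 0.122% ± 0.0683 over the 5 P10 libraries (± SD), which is a difference of -0.0976 percentage points. The two-sided exact permutation p was 0.00216, the smallest that 462 splits can give, and 0.00866 when adjusted over the 4 measures. The share rests on the same miR-211-5p counts as the CPM comparison above, so it is not a separate result. Its denominator is nearly all miR-204-5p, which was itself higher in adults with TMM scaling. On a log2 ratio with a prior count of 0.5 the groups overlapped: adult replicate 4, at -10.22, lay above P10 replicates 1 and 6, at -10.27 and -10.41. The difference on that scale was -2.06 (exact permutation p = 0.00866).

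How reads were assigned to arms is not given in the sources used here. With a single base, A17U, between the 5p arms, it is not known whether a read of miR-204-5p with a changed base at that position could be counted as miR-211-5p, and this was not tested. The miR-211-5p counts are therefore uncertain. P10 replicate 3, which had the largest miR-211-5p share, also had the highest summed mesenchymal level of any library (61126 CPM), and without it the difference in share was -0.0690 percentage points (exact permutation p = 0.00476). This library stood far from the others of its age in 17 of the 227 features of at least 50 CPM, the most of any library, against 15 for adult replicate 1 and 13 for P10 replicate 1. Standing far means that the gap to the nearest library was past the limit of the Dixon test, which chance alone passes in about 1 in 20 groups. Without P10 replicate 3 the log2 change of miR-204-5p was 0.53 (edgeR adjusted p = 0.0436), and without adult replicate 1 it was 0.49 (edgeR adjusted p = 0.0463).

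**Figure D5:**
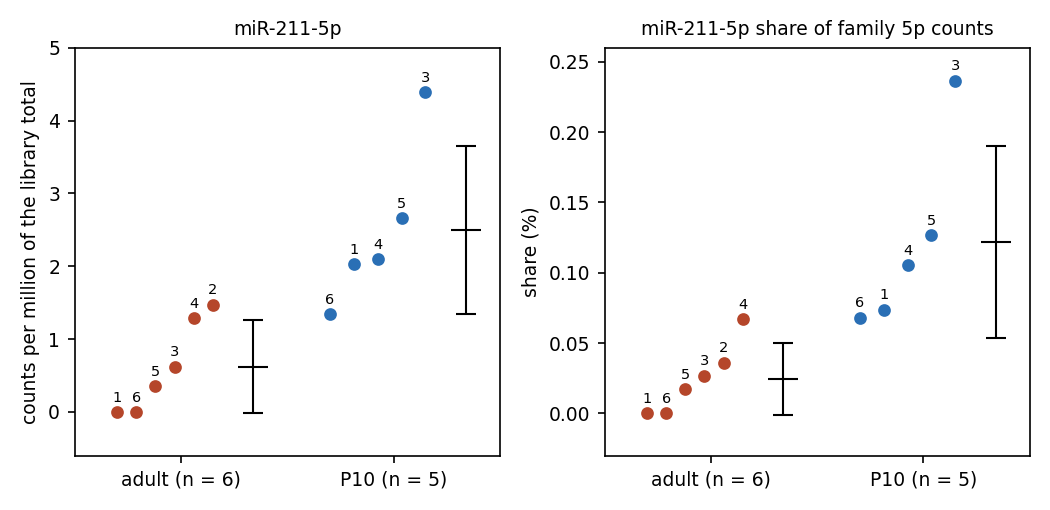
miR-211-5p in each library, as unscaled CPM (left) and as a share of the 5p counts of miR-204 and miR-211 together (right), labelled by replicate number, with the mean ± SD of 6 adult and 5 P10 libraries. Adults lie from 0 to 1.47 CPM and P10 libraries from 1.34 to 4.39, and on the right the highest adult (0.0670%) is just below the lowest P10 library (0.0680%).

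As a whole the family did not pass as different between the ages on library totals. The 3 arms summed to 1925 unscaled CPM at the lowest, 2292 at the median and 4077 at the highest adult, and to 2757 at the highest and 1856 at the lowest P10 library. The means were 2529 ± 787 over the 6 adults and 2134 ± 358 over the 5 P10 libraries (± SD). Their difference of 396 gave a two-sided exact permutation p of 0.390, or 0.519 adjusted over the 4 measures. With TMM-adjusted library sizes the difference was 821 (exact permutation p = 0.0238). With miR-375-3p left out of the library totals it was 879, which did not pass (exact permutation p = 0.0628). Without adult replicate 2 the difference on library totals was 86.1 (exact permutation p = 0.659). Since miR-204-5p held nearly all of these counts, the sum carries no separate information on miR-211-5p.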

How the data were processed

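Total RNA of islets was extracted with Trizol and made into libraries with an Illumina TruSeq small RNA kit, per the labels' protocols. Values are raw counts of reads for each mature arm at each locus, as deposited by the authors, with Rnor_5.0 positions per the file headers. The submitters' processing notes name rn5, edgeR and DESeq without role or version. The aligner, annotation and counting rules: not given in the sources used here. All 11 single-library tables equalled the series table.

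Rows of the same name were merged by taking the largest count in each library. edgeR 4.0.16 (R 4.3.3) filtered features (filterByExpr), scaled libraries by TMM and tested age (adult over P10) by quasi-likelihood with robust fitting and Benjamini-Hochberg adjustment and a threshold of 0.05. Within-library measures were compared by exact permutation (difference of means). A planned 3p share of miR-211 was not analysed here. Alternatives used limma 3.58.1, DESeq2 1.42.0 and other scalings, filters and left-out libraries. The edgeR step was also run on simulated data, and the outcome is not reported here.

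The members, the miRNA lists and the rule for named features were chosen with earlier results of these data known. The rule took all family arms, miR-375-3p, the 4 most abundant list members and the 2 with the smallest p, and the 5 features most like miR-204-5p. Log2 CPM used a prior count of 2. Over 25 pairs of libraries of one age, chi-square per degree of freedom was at least 11.7, so none was within sampling noise.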

Additional observations from a re-analysis of the deposited data

Results flagged for a closer look

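Adult replicate 2 stood far from the other adults, with a gap to its neighbour that was large for a group of 6, in the family's summed level (4077 CPM on library totals) and in miR-204-5p per 1000 counts of miR-375-3p (16.8). P10 replicate 1 likewise stood above the other pups in the summed family level, at 2757 CPM. Both libraries were within the limit for miR-204-5p in TMM-scaled CPM. Of 34 groups of values looked at, 3 were past the limit, and chance alone puts about 1 in 20 past it.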

How the results depend on the processing

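The direction of miR-204-5p was kept under all 22 alternatives, and its call was lost under 3: library totals alone (0.25), without Ensembl-only features (0.45) and without P10 replicate 4. Leaving out single libraries gave 0.34 to 0.60 (adjusted p 0.0175 to 0.0565). miR-211-5p without a filter passed with library totals alone (-1.78), with the replicate block (-2.16) and without adult replicate 2, over a leave-one-out range of -2.07 to -1.26. miR-204-3p ran from 0.34 to 0.95 and passed under none. Its share turned negative without adult replicate 6 (-0.00558 percentage points) or P10 replicate 5 (-0.00578), over a range of -0.00578 to 0.00730. The ratio to miR-375-3p ran from -5.42 to -3.04 with single libraries left out, and turned to 96.4 with the other islet miRNAs as denominator. The family sum ran from 86.1 to 551 with single libraries left out. It passed with TMM-adjusted library sizes (821) and did not pass with miR-375-3p left out of the library totals (879). Library totals alone gave 54 features higher in adults, against 97, and 5 islet list members, against 9. The islet members lower in adults were 1, against 2, with DESeq2, with its size factors and with upper-quartile scaling, where miR-183-5p lost its call and miR-184-3p kept it. Upper-quartile scaling called 127 features higher and 103 lower, library totals alone 54 and 187. The cause of these changes was not tested. The alternatives planned for a 3p share of miR-211 were not run.

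Replicate numbers are shared between ages, but same-numbered libraries did not deviate together (correlations -0.21 to 0.20, and 1 of 5 adults closest to its own number). With them as a block miR-204-5p was at 0.34 (edgeR adjusted p = 0.0211), with 93 features higher and 112 lower. In the paired exact sign-flip test the miR-211-5p share differed by -0.09995 percentage points, p = 0.0625, the smallest that 5 pairs allow. Depth limits miR-211-5p and miR-204-3p, at 0 to 8 counts per library.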
